A study of Sus scrofa with 36 samples.

Results

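Genes of folate, methionine and choline metabolism were examined in cerebellar RNA of 36 piglets. The set was a list of 8 named genes: SLC19A1, MTHFD1, MTR, SHMT1, CBS, PEMT, CHKA and PCYT1A, out of 31907 Ensembl pig genes counted. Of the 8 genes, 6 were matched by symbol to an Ensembl identifier with counts, and SLC19A1 and PEMT had no identifier in the table of gene names and were not analysed here. All 6 matched genes passed the filter on low counts, which left 15356 genes to be tested. The genes were listed by name and not by their levels. In RefSeq's annotation MTHFD1 overlaps ZBTB25, SHMT1 overlaps SMCR8, CHKA overlaps TCIRG1 and PCYT1A overlaps TCTEX1D2. These overlaps are of whole gene spans, and overlap of the counted exons was not examined. Ambiguous read pairs, 5.42% to 7.24% per library, had a row of their own and were not used, so reads of these genes may be lost.

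The piglets were born at term with a normal birth weight (NBW) or after intrauterine growth restriction (IUGR), entered at 3 days of age and received formula for 3 weeks. Formula fat came from vegetable oil (VEG) or from bovine milk fat (MILK), which gave 4 groups of 9 piglets each: VEG-NBW and MILK-NBW, and their growth-restricted counterparts VEG-IUGR and MILK-IUGR. Females and males numbered 5 and 4 in each group except MILK-NBW, with 3 females and 6 males. All groups were formula fed, and IUGR was assigned at birth from low weight and head shape. Piglets came from a few litters that the labels do not give, so littermates could not be identified. RNA was extracted from crushed cerebellum tissue, and the study does not say whether the whole cerebellum was used. In such tissue fewer cells of a type and less RNA per cell cannot be told apart.

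Folate carries single-carbon units between the synthesis of purines, thymidylate and methionine. Methionine is activated to S-adenosylmethionine, the methyl donor for DNA, proteins and phospholipids, and the homocysteine that results is either methylated again or passed to cysteine by transsulfuration. Choline is phosphorylated and built into phosphatidylcholine, a main lipid of all cell membranes and of myelin, and its oxidation product betaine can also donate methyl groups. Milk is a source of both choline and folate for the suckling animal. Here both formulas received the same amounts of whey protein, casein, lactose and vitamin products and differed in the fat source. The study lists no choline or folate content for either. The comparisons asked whether the fat source, the birth weight or their combination moved the transcripts of these enzymes.

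In 3 libraries a larger share of read pairs had no gene than in the rest of their group: 43.6% in VEG-NBW piglet 202, 64.3% in VEG-IUGR piglet 210 and 31.5% in MILK-NBW piglet 213. The other 33 libraries, 8 in each group and 9 in MILK-IUGR, were used for all results unless stated. They held 15516541 to 23027502 counts on genes, with 26.7% to 30.5% of read pairs not assigned. Levels are given as CPM, counts scaled to a common library total with TMM factors, and they are compared within a gene only, since transcript lengths were not used. The defining markers of granule neurons (GABRA6, 199 to 389 CPM) and Purkinje cells (PCP2, 330 to 889 CPM) were present in each of them. The 7 oligodendrocyte markers summed to 8585 to 48020 CPM per library, and the 4 groups overlapped, with medians of 15336 in VEG-NBW, 16887 in VEG-IUGR, 21077 in MILK-NBW and 20002 in MILK-IUGR. Choroid plexus markers summed to 36.9 to 1690 CPM in MILK-IUGR, 17.1 to 117 in MILK-NBW, 73.9 to 359 in VEG-IUGR and 22.6 to 263 in VEG-NBW. Group medians of this sum lay closer together, at 113 CPM in MILK-IUGR, 80.7 in MILK-NBW, 97.9 in VEG-IUGR and 100.7 in VEG-NBW. These medians rest largely on OTX2, with a median of 70.9 CPM over the 33 libraries, beside 16.6 for TTR and 5.42 for KCNJ13. They therefore say little about the other markers of the list. The highest sum, 1690 CPM, belonged to MILK-IUGR piglet 231 alone, and the next highest of the 33 libraries was 359 CPM. All 6 choroid plexus markers were higher in the fit of MILK-IUGR against MILK-NBW, 5 of them with an unadjusted p under 0.05 and none after adjustment. Their median log2 difference in that fit, which includes piglet 231, was 2.309. In MILK-NBW against VEG-NBW all 6 were lower, with a median log2 difference of -1.436, 3 of them with an unadjusted p under 0.05.

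None of the 6 measured genes differed between diets, birth weights, sexes or pairs of groups at an adjusted p under 0.05 (edgeR quasi-likelihood F test, Benjamini-Hochberg adjustment over all 15356 genes). The same test called 0% of all genes for diet, birth weight, the interaction and each of the 4 pairs of groups, and 25 genes or 0.163% for sex, so the count of 0 members is the count for nearly every gene. At an unadjusted p under 0.05, 0 of 6 members passed for diet, beside 4.26% of all genes. For birth weight 1 of 6 passed, beside 2.19% of all genes, and for the interaction 1 of 6, beside 6.09%. No member passed for MILK-NBW against VEG-NBW (6.67% of all genes) or VEG-IUGR against VEG-NBW (2.29%). In MILK-IUGR against VEG-IUGR 1 of 6 passed (3.9% of all genes), in MILK-IUGR against MILK-NBW 2 of 6 (6.24%), and for sex 0 of 6 (2.94%). DESeq2 and limma voom also called 0 members in each of these comparisons.

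MTHFD1 (ENSSSCG00000002269, chromosome 7, bases 88471317 to 88533690 in RefSeq's annotation of Sscrofa11.1) encodes the cytosolic trifunctional enzyme that interconverts the single-carbon forms of tetrahydrofolate. It had the lowest, median and highest levels of 60.2, 75.8 and 99.1 CPM in VEG-NBW, and of 75.5, 82.7 and 94.3 CPM in VEG-IUGR. In MILK-NBW these were 73.5, 83.6 and 98.9 CPM, and in MILK-IUGR 68.5, 76.9 and 87.9 CPM. The 4 groups overlapped, and the lowest level of all belonged to VEG-NBW piglet 215. Group means ran from MILK-NBW (85.0 ± 9.36, SD, n = 8) and VEG-IUGR (83.0 ± 6.47, n = 8) to VEG-NBW (78.4 ± 11.96, n = 8) and MILK-IUGR (76.1 ± 6.99, n = 9). Neighbours in that order differed by less than the SD of either group.

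With milk fat MTHFD1 was higher in the mean of the NBW piglets and lower in that of the IUGR piglets, at 1.084-fold (95% interval 0.969 to 1.212) and 0.917-fold (0.823 to 1.022). The interaction of diet and birth weight was -0.24 on the log2 scale (SE 0.11), with an unadjusted p of 0.0372 and an adjusted p of 0.784 by edgeR. MILK-IUGR against MILK-NBW gave 0.895-fold (0.802 to 0.999; adjusted p = 0.771 by edgeR), and an exact two-sided permutation test of the log2 CPM gave an unadjusted p of 0.0436 with n = 9 and n = 8. In the leave-one-out fits of this pair the unadjusted p was under 0.05 in 18 of 33, and 0.12 without piglet 219. Across diets MTHFD1 was at 0.994-fold in MILK against VEG (0.916 to 1.079). With all 36 libraries the interaction was -0.11 (SE 0.524). Within the 33, leaving out 1 piglet at a time moved the interaction between -0.29 and -0.19, and its unadjusted p stayed under 0.05 in 19 of 33 fits. With piglet 215 left out that p was 0.0813. A fit with the share of unassigned read pairs as a covariate gave an interaction of -0.17 (unadjusted p = 0.0881, adjusted p = 0.741 by edgeR).

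SHMT1 (ENSSSCG00000036208, chromosome 12, bases 60414421 to 60435451) encodes the cytosolic serine hydroxymethyltransferase, which moves the side-chain carbon of serine onto tetrahydrofolate. Its levels were the most spread of the 6 genes. The lowest, median and highest values were 13.4, 22.2 and 37.0 CPM in VEG-NBW, and 14.2, 23.8 and 44.0 CPM in VEG-IUGR. They were 18.3, 21.9 and 33.7 CPM in MILK-NBW and 16.2, 22.3 and 33.2 CPM in MILK-IUGR. All groups overlapped, and the highest piglet lay 3.28-fold above the lowest. The group means of 24.2 ± 8.88 (VEG-IUGR, SD, n = 8), 24.0 ± 5.16 (MILK-NBW, n = 8), 23.1 ± 5.69 (MILK-IUGR, n = 9) and 21.996 ± 8.01 CPM (VEG-NBW, n = 8) lay within 1 SD of each other.

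For SHMT1 the diet difference was 1.02-fold (95% interval 0.84 to 1.237) and the birth weight difference 1.029-fold (0.847 to 1.249). These intervals were the widest of the 6 genes. The mitochondrial counterpart SHMT2 had a narrower interval for diet, at 0.911 to 1.026-fold.

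MTR (ENSSSCG00000010143, chromosome 14, bases 54546978 to 54652780) encodes methionine synthase, which uses methyl-tetrahydrofolate and vitamin B12 to turn homocysteine into methionine. Its lowest, median and highest levels were 35.7, 39.8 and 60.1 CPM in VEG-NBW and 34.3, 37.5 and 46.4 CPM in VEG-IUGR. In MILK-NBW they were 33.4, 40.5 and 50.4 CPM, and in MILK-IUGR 35.7, 41.3 and 47.4 CPM. The groups overlapped, and 1 VEG-NBW male, piglet 215, stood above every other piglet. That library also had the highest share of unassigned read pairs of the 33, at 30.5%. With that share as a covariate, an alternative added after seeing the data, the MTR diet difference was 1.016-fold (0.938 to 1.101). Group means fell in the order VEG-NBW (42.0 ± 7.69, SD, n = 8), MILK-NBW (40.7 ± 6.28, n = 8), MILK-IUGR (40.4 ± 3.82, n = 9) and VEG-IUGR (39.0 ± 4.26 CPM, n = 8), and neighbours did not differ beyond their SD. The diet difference was 1.004-fold (0.916 to 1.1) and the birth weight difference 0.96-fold (0.876 to 1.053).

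In NBW piglets the MTR values of females and males lay on opposite sides of the diet difference, a pattern that was chosen after the values had been seen. The 3 MILK-NBW females had 42.7, 48.4 and 50.4 CPM, all above the 4 VEG-NBW females, whose range was 35.7 to 39.8 CPM. The 5 MILK-NBW males had 33.4 to 40.6 CPM and the 4 VEG-NBW males 39.7 to 60.1 CPM, with a small overlap. In separate fits MILK-NBW against VEG-NBW was 1.23-fold in females and 0.8-fold in males. The difference between these effects was 0.63 on the log2 scale (SE 0.161), with an unadjusted p of 0.000431 and an adjusted p of 0.9992 in an edgeR model of the 8 group-by-sex means. Without piglet 215 it was 0.48 (SE 0.142, unadjusted p = 0.00203, adjusted p = 0.9998 by edgeR). At an unadjusted p under 0.05, MTR was the only 1 of the 6 genes to pass in NBW piglets, beside 4.17% of all genes, and 0 of 6 passed in IUGR piglets, beside 8.73%. At the adjusted threshold no member was called, beside 0.00651% of all genes in NBW and 0% in IUGR piglets. In IUGR piglets the same difference for MTR was -0.13 (SE 0.155). Each of these sets held 3 to 5 piglets.

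CBS (ENSSSCG00000040779, chromosome 13, bases 206205942 to 206231363) encodes cystathionine beta-synthase, the first enzyme of transsulfuration, which joins homocysteine to serine. It was the least counted of the 6 genes, with 78 to 178 counts per library. Its lowest, median and highest levels were 4.61, 7.38 and 8.95 CPM in VEG-NBW and 5.09, 7.84 and 8.67 CPM in MILK-NBW. In the IUGR groups they were 4.30, 6.15 and 7.95 CPM with VEG and 4.43, 5.20 and 8.17 CPM with MILK. Both IUGR medians lay below both NBW medians, but the ranges overlapped. The means of MILK-NBW (7.26 ± 1.35, SD, n = 8), VEG-NBW (7.14 ± 1.54, n = 8), VEG-IUGR (6.30 ± 1.16, n = 8) and MILK-IUGR (6.13 ± 1.58 CPM, n = 9) each differed from the next by less than the SDs.

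Over both diets CBS was at 0.856-fold in IUGR against NBW (95% interval 0.736 to 0.996). The log2 difference was -0.22 (SE 0.107), with an unadjusted p of 0.0448 and an adjusted p of 0.9996 by edgeR. The difference was 0.883-fold with VEG (0.71 to 1.099) and 0.831-fold with MILK (0.671 to 1.031), and the exact two-sided permutation p, not adjusted, was 0.283 with n = 8 and n = 8 and 0.119 with n = 9 and n = 8. Diet gave 0.997-fold (0.858 to 1.159). In the leave-one-out fits the birth weight difference ran from -0.26 to -0.19 on the log2 scale and had an unadjusted p under 0.05 in 13 of 33. The largest of these p-values was 0.0805, without piglet 204. With all 36 libraries the value was -0.27 (SE 0.211, unadjusted p = 0.212).

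CHKA (ENSSSCG00000012889, chromosome 2, bases 4788508 to 4846667) encodes choline kinase alpha, which phosphorylates choline in the first step towards phosphatidylcholine. Its lowest, median and highest levels were 37.9, 41.5 and 48.7 CPM in VEG-NBW and 39.1, 42.8 and 46.8 CPM in VEG-IUGR. With milk fat they were 35.9, 43.3 and 48.7 CPM in MILK-NBW and 33.4, 38.9 and 43.3 CPM in MILK-IUGR. MILK-IUGR held the lowest piglet and the lowest median, and it overlapped each other group. The means were 42.9 ± 2.65 (VEG-IUGR, SD, n = 8), 42.8 ± 4.002 (MILK-NBW, n = 8), 42.3 ± 3.65 (VEG-NBW, n = 8) and 39.2 ± 3.10 CPM (MILK-IUGR, n = 9).

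CHKA was at 0.914-fold in MILK-IUGR against VEG-IUGR (95% interval 0.839 to 0.994), with a log2 difference of -0.13 (SE 0.06), an unadjusted p of 0.0375 and an adjusted p of 0.996 by edgeR. The exact two-sided permutation test of the same groups gave an unadjusted p of 0.0167 (n = 9 and n = 8). Against MILK-NBW the MILK-IUGR group was at 0.917-fold (0.842 to 0.999; adjusted p = 0.771 by edgeR), with an exact permutation p of 0.0564. In NBW piglets the diet difference was 1.012-fold (0.927 to 1.104). The interaction was -0.15 (SE 0.0865), with an unadjusted p of 0.0976 and an adjusted p of 0.785 by edgeR. Piglet 207, a MILK-IUGR female, was the lowest of all, and without it MILK-IUGR against VEG-IUGR was at 0.93-fold (unadjusted p = 0.0861) and against MILK-NBW at 0.934-fold (unadjusted p = 0.107). In the leave-one-out fits the unadjusted p was under 0.05 in 25 of 33 for the first comparison and in 12 of 33 for the second, with the largest values of 0.0904 without piglet 203 and 0.119 without piglet 218. With all 36 libraries the diet value in IUGR piglets was 0.87-fold (0.742 to 1.019). On the genome CHKA overlaps TCIRG1, whose level followed that of CHKA in part (r = 0.5 and rho = 0.379 over 33 piglets, given as a description).

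PCYT1A (ENSSSCG00000011845, chromosome 13, bases 133794337 to 133851004) encodes the alpha form of the enzyme that activates phosphocholine with CTP, the rate-limiting step of phosphatidylcholine synthesis from choline. Its lowest, median and highest levels were 70.1, 78.6 and 86.6 CPM in VEG-NBW and 74.3, 80.04 and 88.6 CPM in VEG-IUGR. They were 75.3, 78.2 and 85.8 CPM in MILK-NBW and 72.3, 81.3 and 91.9 CPM in MILK-IUGR. The groups overlapped almost fully. PCYT1A was the steadiest of the 6 genes, with 1.31-fold between the lowest and the highest piglet. Means were 81.2 ± 5.04 (VEG-IUGR, SD, n = 8), 81.2 ± 5.18 (MILK-IUGR, n = 9), 79.2 ± 3.15 (MILK-NBW, n = 8) and 78.6 ± 5.53 CPM (VEG-NBW, n = 8). The diet difference was 1.003-fold with a 95% interval of 0.956 to 1.052, and the birth weight difference 1.031-fold (0.983 to 1.081). These intervals were the narrowest of the 6 genes.

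**Figure D1:**
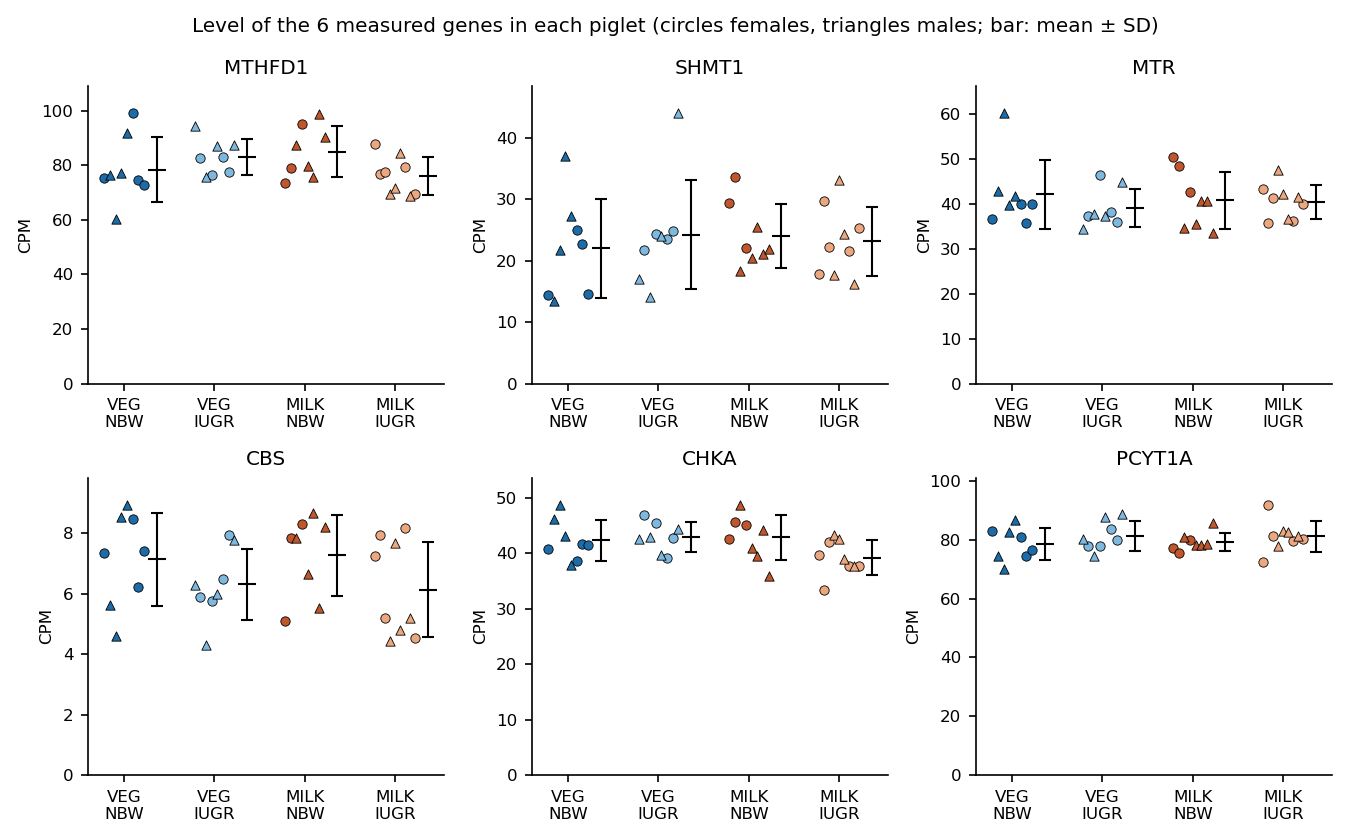
Level of each measured gene (vertical axes, CPM from 0) in the 33 piglets by group, with females as circles, males as triangles, and the mean ± SD of each group as a bar beside the points. All groups overlap in every gene, SHMT1 runs from 13.4 to 44.0 CPM, PCYT1A runs from 70.1 to 91.9 CPM, and piglet 215 is the single high MTR point of VEG-NBW at 60.1 CPM.

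Between sexes, males against females ranged from 0.932-fold for CBS (0.799 to 1.088) to 1.017-fold for CHKA and PCYT1A. Over the 6 members the median log2 difference was 0 for diet, beside -0.003 over all genes tested, and -0.047 for birth weight, beside -0.001. The genes with the narrowest intervals for diet were PCYT1A and CHKA, and those with the widest SHMT1 and CBS.

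**Figure D2:**
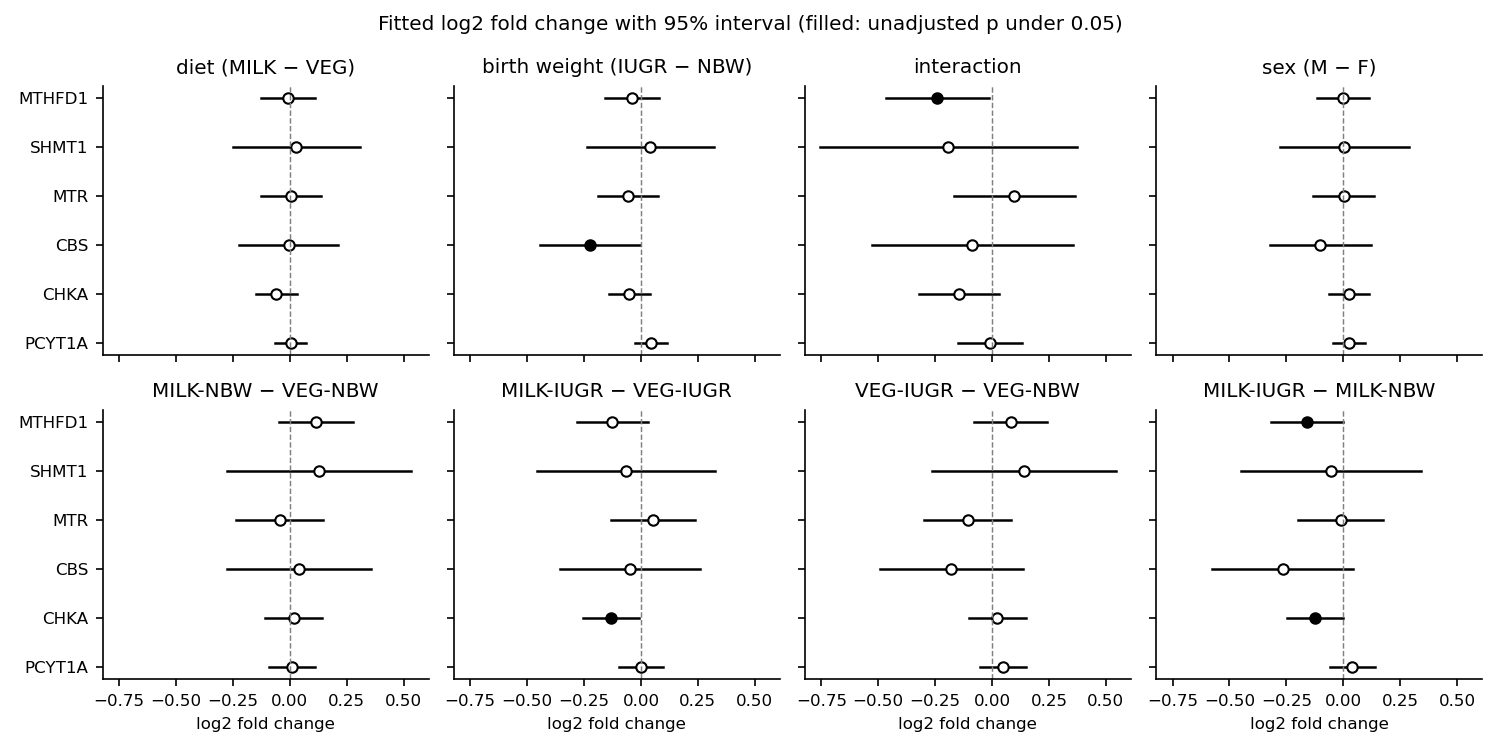
Log2 fold change (horizontal axes) of the 6 measured genes with 95% intervals in 8 comparisons, with filled points for an unadjusted p under 0.05. The 5 filled points are CBS for birth weight, MTHFD1 for the interaction, CHKA in MILK-IUGR against VEG-IUGR, and MTHFD1 and CHKA in MILK-IUGR against MILK-NBW, and no gene passes after adjustment.

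For the libraries left out, levels of these genes are given as plain CPM, without TMM scaling. In piglet 210 MTHFD1, MTR, SHMT1 and CBS had 0 counts, while CHKA had 503 counts (63.4 CPM) and PCYT1A 113 counts (14.2 CPM). That library had a count on only 6513 genes, beside 18635 to 19682 in each of the 33 libraries. Counts of 0 there were thus not particular to these genes. In piglet 202 MTHFD1 (34.0 CPM), MTR (30.9), SHMT1 (12.4) and CBS (4.17) lay below the range of the 33 libraries, CHKA (65.2) above it, and PCYT1A (86.6) within it. In piglet 213 all 6 genes lay within the range of the 33, at 75.9 CPM for MTHFD1, 34.8 for MTR, 23.6 for SHMT1, 7.26 for CBS, 48.1 for CHKA and 82.3 for PCYT1A. With all 36 libraries 0 members were called, and the standard error of the MTHFD1 diet difference was 0.256 in place of 0.0581.

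The wider pathway was described with 86 further genes, of which 80 were matched and 71 passed the filter. FTCD, AMT, NNMT and PNMT had 0 counts in the 33 libraries. Such a count does not separate absent RNA from an identifier that took no reads, and which of these holds was not tested. MAT1A, the liver form of methionine adenosyltransferase, had 0 to 10 counts, and CHDH, which oxidises choline towards betaine, had 1 to 15. GNMT, DMGDH and CHAT had at most 14, 7 and 7 counts. FOLR1 and CHKB had no identifier and were not analysed here.

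None of the 71 further genes passed the adjusted threshold in any of the 8 comparisons by edgeR. At an unadjusted p under 0.05, 2 of 71 passed for diet (4.26% of all genes), 2 for birth weight (2.19%), 5 for the interaction (6.09%) and 2 for sex (2.94%). Between pairs of groups, 8 passed in MILK-NBW against VEG-NBW (6.67% of all genes), 3 in MILK-IUGR against VEG-IUGR (3.9%), 1 in VEG-IUGR against VEG-NBW (2.29%) and 4 in MILK-IUGR against MILK-NBW (6.24%). SLC19A3, which carries thiamine and belongs to the family of the folate carrier SLC19A1, came nearest, at 2.16 to 3.58 CPM in MILK-NBW and 3.25 to 7.44 CPM in MILK-IUGR. It was at 1.72-fold in MILK-IUGR against MILK-NBW (1.41 to 2.099; adjusted p = 0.0531 by edgeR). It passed in 7 of 15 alternatives, with adjusted p-values from 0.00147 by DESeq2 to 1 with all 36 libraries. The study, which used DESeq2, named SLC19A3 among 4 genes with an interaction of diet and birth weight. Here its interaction was 0.896 on the log2 scale and was not called at the adjusted threshold. Between pairs of groups the study reported higher SLC19A3 in MILK-IUGR than in MILK-NBW piglets. In this comparison the choroid plexus markers were also higher in MILK-IUGR, and without piglet 231, which had their highest sum, SLC19A3 was at 1.666-fold (adjusted p = 0.24 by edgeR), MTHFD1 at 0.881-fold and CHKA at 0.92-fold. The part of choroid plexus RNA in the SLC19A3 difference was not tested.

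In the folate uptake list 0 of 5 tested genes passed for diet even without adjustment. SLC46A1, the proton-coupled folate transporter, was at 1.077-fold in MILK against VEG (0.987 to 1.175). SLC19A2, the other thiamine carrier of the SLC19 family, was at 0.97-fold (0.9 to 1.046). In the folate cycle list, which includes MTHFD1 and SHMT1, 4 of 15 genes were higher and 11 lower in MILK than in VEG. The median log2 difference was -0.032, beside -0.003 over all genes. At an unadjusted p under 0.05, 0 of these 15 passed for diet, beside 4.26% of all genes. In MILK-NBW against VEG-NBW 3 of these 15 had an unadjusted p under 0.05, beside 6.67% of all genes: MTHFD2, the mitochondrial methylene-tetrahydrofolate dehydrogenase (log2 difference -0.33, SE 0.151), GART, an enzyme of purine synthesis (-0.10, SE 0.0464), and TYMS, thymidylate synthase (0.34, SE 0.156). These 3, like the others named only for an unadjusted p, were chosen after their values were seen.

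In the methionine cycle list, which includes MTR, 5 of 9 genes were higher and 4 lower with MILK. The median log2 difference was 0.001, beside -0.003 over all genes. MTRR, the reductase that reactivates MTR, was at 0.974-fold for diet (0.907 to 1.047). MAT2A, which makes S-adenosylmethionine outside the liver, was at 0.949-fold (0.869 to 1.037), and AHCY, which splits S-adenosylhomocysteine, at 1.018-fold (0.945 to 1.097). In MILK-NBW against VEG-NBW, MAT2A had a log2 difference of -0.19 (SE 0.0873) and AHCY of 0.16 (SE 0.0704), with adjusted p-values of 0.735 and 0.727 by edgeR. BHMT, which methylates homocysteine with betaine, had 0.0481 to 1.16 CPM over the 33 libraries, and its diet interval was 0.771 to 1.718-fold.

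In the vitamin B12 list 8 of 9 genes were higher in IUGR than in NBW, with a median log2 difference of 0.037 beside -0.001 over all genes, and 1 of the 9 had an unadjusted p under 0.05, beside 2.19% of all genes. That gene was ABCD4, a transporter of B12 out of the lysosome (0.16, SE 0.0756, adjusted p = 0.9996 by edgeR). In the transsulfuration and glutathione list, CTH, the enzyme after CBS, was at 0.923-fold for diet (0.827 to 1.031). Its log2 difference was -0.29 (SE 0.108) in MILK-NBW against VEG-NBW and 0.24 (SE 0.105) in MILK-IUGR against MILK-NBW, 2 comparisons that share the MILK-NBW piglets, with adjusted p-values of 0.721 and 0.771 by edgeR.

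In the choline uptake and oxidation list 1 of 9 genes had an unadjusted p under 0.05 for diet, beside 4.26% of all genes. It was SLC44A5, of the choline transporter-like family (log2 difference -0.19, SE 0.0769, adjusted p = 0.985 by edgeR). SLC44A1, the main choline transporter of that family, was at 1.062-fold (0.915 to 1.233). SLC5A7, the high-affinity carrier of cholinergic neurons, stayed at 0.0594 to 1.15 CPM in all libraries. In the list of phosphatidylcholine and phosphatidylethanolamine synthesis 4 of 12 genes were higher and 8 lower with MILK, and 0 passed. The median log2 difference of that list was -0.022, beside -0.003 over all genes. PCYT1B, the neuronal relative of PCYT1A, was at 1.014-fold for diet (0.954 to 1.078), and its log2 difference was -0.16 (SE 0.0591) in MILK-IUGR against MILK-NBW (adjusted p = 0.771 by edgeR). Of the 6 tested genes that use methyl groups, all 6 lay lower with MILK, with a median of -0.013 beside -0.003 over all genes. DNMT3B, a DNA methyltransferase, had the largest of these differences (-0.20, SE 0.0807, adjusted p = 0.985 by edgeR).

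**Figure D3:**
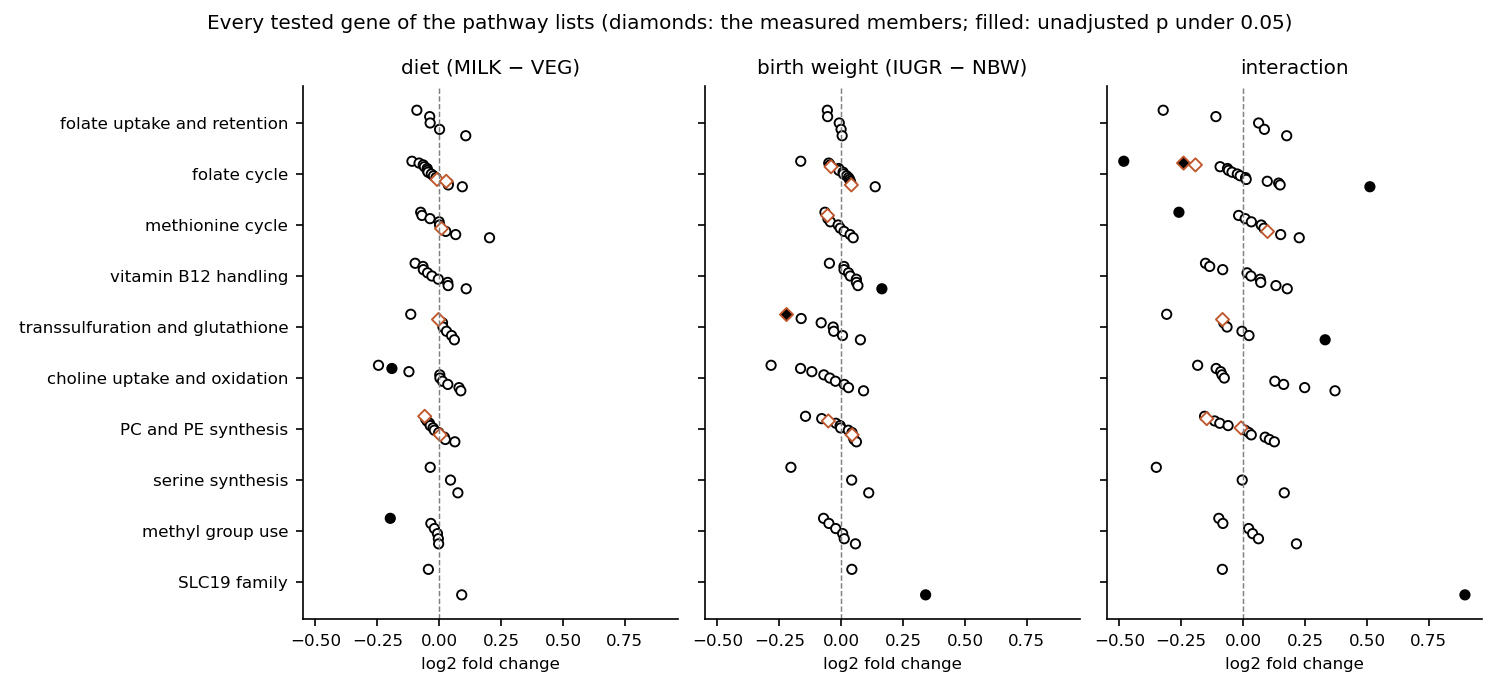
Log2 fold change (horizontal axes) of every tested gene of 10 pathway lists (rows; PC and PE stand for phosphatidylcholine and phosphatidylethanolamine) for diet, birth weight and their interaction, with the measured members as diamonds and an unadjusted p under 0.05 as filled points. All tested genes lie between -0.245 and 0.203 for diet, and the point farthest to the right for the interaction is SLC19A3 at 0.90.

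The spread between piglets of 1 group and sex differed between the members. The biological coefficient of variation was 6.99% for PCYT1A and 8.45% for CHKA, 11.12% for MTHFD1 and 13.0% for MTR, and 20.2% for CBS and 27.3% for SHMT1, beside a median of 13.7% over all genes. PCYT1A had a smaller value than all but 2.4% of genes, and SHMT1 a larger one than 84.3% of genes. Counting error, at 2.61% to 9.05% of the mean, was smaller than the spread in each gene.

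The levels that remain after fitting group and sex were set beside scores of 10 marker lists (the mean of standardised log2 CPM over the list), the share of unassigned read pairs and the counts on genes, and the members beside each other. This gave 87 relations over 33 piglets, of which 16 had a Benjamini-Hochberg adjusted permutation p under 0.05 for both Pearson's r and Spearman's rho. The share of all tested genes with such coefficients was computed for the oligodendrocyte score only. There 13.6% had r of at least 0.452 and rho of at least 0.462 in either direction. With the granule neuron score, r of the further pathway genes ran from -0.817 (ALDH7A1) to 0.718 (DNMT1). Coefficients of this size are therefore not particular to the members. SHMT1 followed the oligodendrocyte score, with r = 0.94 and rho = 0.915, both with a permutation p of 1e-05, the smallest that 100000 permutations can give (adjusted p = 0.000435 for both). It was 0.906 in females and 0.952 in males. Without the 2 piglets farthest from the median score r was 0.91. SHMT1 also followed the microglia (r = 0.609, rho = 0.611, adjusted permutation p = 0.00435 and 0.005) and astrocyte and Bergmann glia scores (r = 0.598, rho = 0.561, adjusted permutation p = 0.00435 and 0.00945), at 0.559 and 0.574 without the 2 farthest piglets. It ran against the granule neuron score (r = -0.475, rho = -0.467, adjusted permutation p = 0.0264 and 0.035), with -0.055 in females and -0.592 in males and -0.608 without the 2 farthest piglets. No member passed for the choroid plexus, meninges, red blood cell or liver scores. Of the 12510 genes with a symbol, the 2 most like SHMT1 were CNP (r = 0.947), a myelin enzyme that is itself in the marker list, and CLDN11 (r = 0.939), a tight junction protein of myelin.

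VEG-IUGR piglet 227 had the highest SHMT1 level, 44.0 CPM, and also the highest oligodendrocyte marker sum, 48020 CPM. With the oligodendrocyte score in the fit, an alternative added after seeing the data, the SHMT1 diet difference was 0.929-fold and its standard error on the log2 scale 0.0527 in place of 0.138, with an unadjusted p of 0.0531 and an adjusted p of 0.9997 by edgeR.

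Of the 71 further pathway genes, 12 followed the same score after adjustment over the 71 for both coefficients, 10 of them upwards. Over all 15356 tested genes, 13.6% had coefficients at least as large as the smallest among these 12 (r of 0.452 and rho of 0.462, in either direction), beside 16.9% of the 71. Upward coefficients made up 64.4% of these over all genes and 83.3% among the 12. The largest coefficients were those of SLC44A1 (r = 0.926, rho = 0.892), GCLC of glutathione synthesis (r = 0.859, rho = 0.805), SLC44A2 (r = 0.794, rho = 0.762) and PHGDH of serine synthesis (r = 0.78, rho = 0.783). The permutation p was 1e-05 for both coefficients of SLC44A1, GCLC, SLC44A2 and PHGDH (adjusted p = 0.000177 for r and 0.000142 for rho). Without the 2 farthest piglets r was 0.891 for SLC44A1, 0.789 for GCLC, 0.717 for SLC44A2 and 0.696 for PHGDH. For SLC44A1 r was 0.859 in females and 0.95 in males. ETNK1, an ethanolamine kinase (r = -0.62, rho = -0.667), and DNMT1 (r = -0.583, rho = -0.54) ran the other way, with permutation p-values of 6e-05 and 2e-05 for ETNK1 and 0.00034 and 0.00146 for DNMT1. SHMT2 was among the 10 with a smaller coefficient (r = 0.452, rho = 0.471, permutation p of 0.00806 and 0.00594).

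PCYT1A ran against the granule neuron score (r = -0.737, rho = -0.71, both with a permutation p of 1e-05, adjusted p = 0.000435). The coefficient was -0.446 in females and -0.895 in males, and -0.666 without the 2 farthest piglets. PCYT1A also followed the astrocyte and Bergmann glia, oligodendrocyte and microglia scores, with r of 0.566, 0.557 and 0.55 and rho of 0.643, 0.501 and 0.47. The adjusted permutation p-values were 0.00609, 0.00609 and 0.00683 for r and 0.00203, 0.0249 and 0.035 for rho. In the same order r was 0.24, 0.4 and 0.538 in females and 0.734, 0.65 and 0.571 in males. PCYT1A ran against the share of unassigned read pairs (r = -0.585, rho = -0.512, adjusted permutation p = 0.00478 and 0.0244). The 2 genes most like PCYT1A were ECHDC1 (r = 0.858), an enzyme that removes ethylmalonyl-CoA, and PRXL2A (r = 0.856).

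CHKA, the enzyme before PCYT1A, had coefficients of the opposite sign: 0.558 with the granule neuron score (rho = 0.501, adjusted permutation p = 0.00609 and 0.0249) and -0.593 with PCYT1A itself (rho = -0.507, adjusted permutation p = 0.00435 and 0.0249). Without the 2 farthest piglets these were 0.389 and -0.451. The relation of CHKA to the granule neuron score was 0.24 in females and 0.685 in males. CHKA also rose with the share of unassigned read pairs by Pearson's r alone (r = 0.486, adjusted permutation p = 0.0233, and rho = 0.363, adjusted permutation p = 0.129). Without the 2 farthest piglets that r was 0.457. CHKA was most like TAOK2 (r = 0.776), a protein kinase, and ZNF446 (r = 0.773), a zinc finger protein.

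MTHFD1 ran against the share of unassigned read pairs (r = -0.567, rho = -0.582, adjusted permutation p = 0.00609 and 0.00945), with -0.432 in females, -0.653 in males and -0.506 without the 2 farthest piglets. It was most like NTN4 (r = 0.765), a netrin, and CENPN (r = 0.75), a centromere protein. MTR rose with that share by Pearson's r alone (r = 0.498, adjusted permutation p = 0.0211; rho = 0.412, adjusted permutation p = 0.0753). Without the 2 farthest piglets, of which piglet 215 is 1, its r was 0.319. MTR was most like CHD8 (r = 0.783), a chromatin remodeller, and FNBP1 (r = 0.763). It also followed CHKA (r = 0.525, rho = 0.489, adjusted permutation p = 0.00907 and 0.0274), at 0.439 without the 2 farthest piglets.

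CBS ran against the granule neuron score (r = -0.55, rho = -0.567, adjusted permutation p = 0.00609 and 0.00945) and with the astrocyte and Bergmann glia score (r = 0.44, rho = 0.467, adjusted permutation p = 0.0455 and 0.035). Within the sexes these were -0.402 and 0.18 in females and -0.634 and 0.566 in males. CBS followed PCYT1A (r = 0.556, rho = 0.546, adjusted permutation p = 0.00609 and 0.0133), at 0.232 in females and 0.787 in males. CBS was most like SAMD5 (r = 0.767) and NQO1 (r = 0.751), a quinone reductase. All these values share their libraries and scaling.

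**Figure D4:**
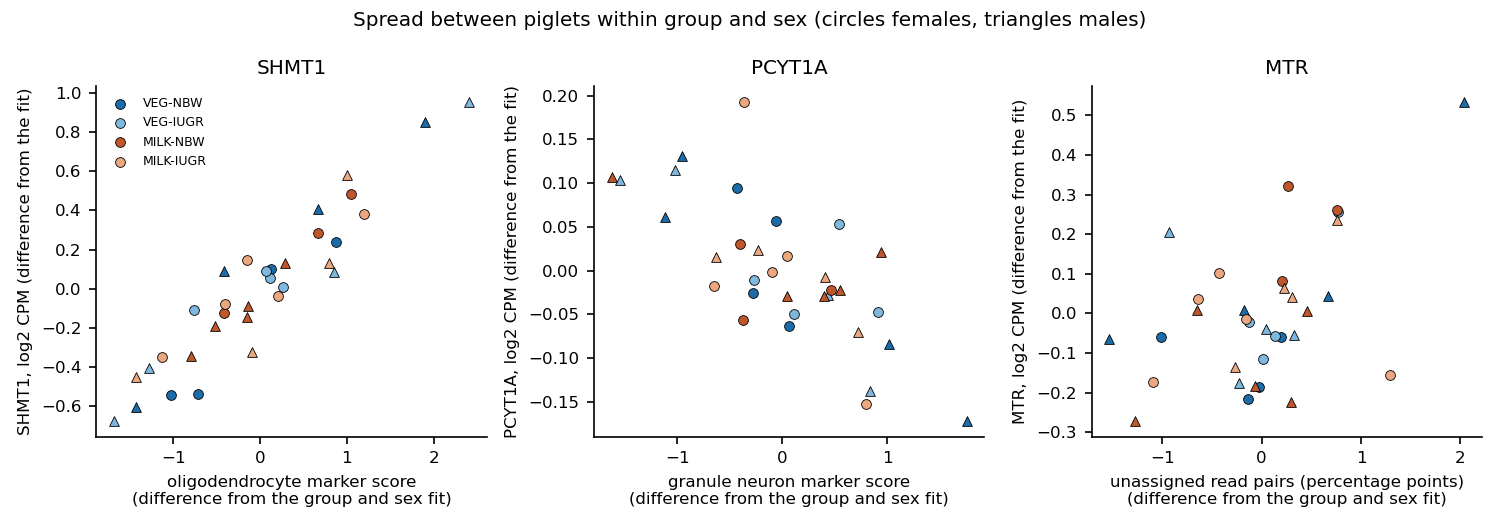
Differences from the fit of group and sex in 33 piglets, with circles for females, triangles for males and colours for groups: SHMT1 (log2 CPM) against the oligodendrocyte marker score, PCYT1A against the granule neuron score, and MTR against the share of unassigned read pairs in percentage points. SHMT1 rises along a narrow band (r = 0.94), PCYT1A falls (r = -0.737), and the MTR point at the upper right is piglet 215.

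**Figure D5:**
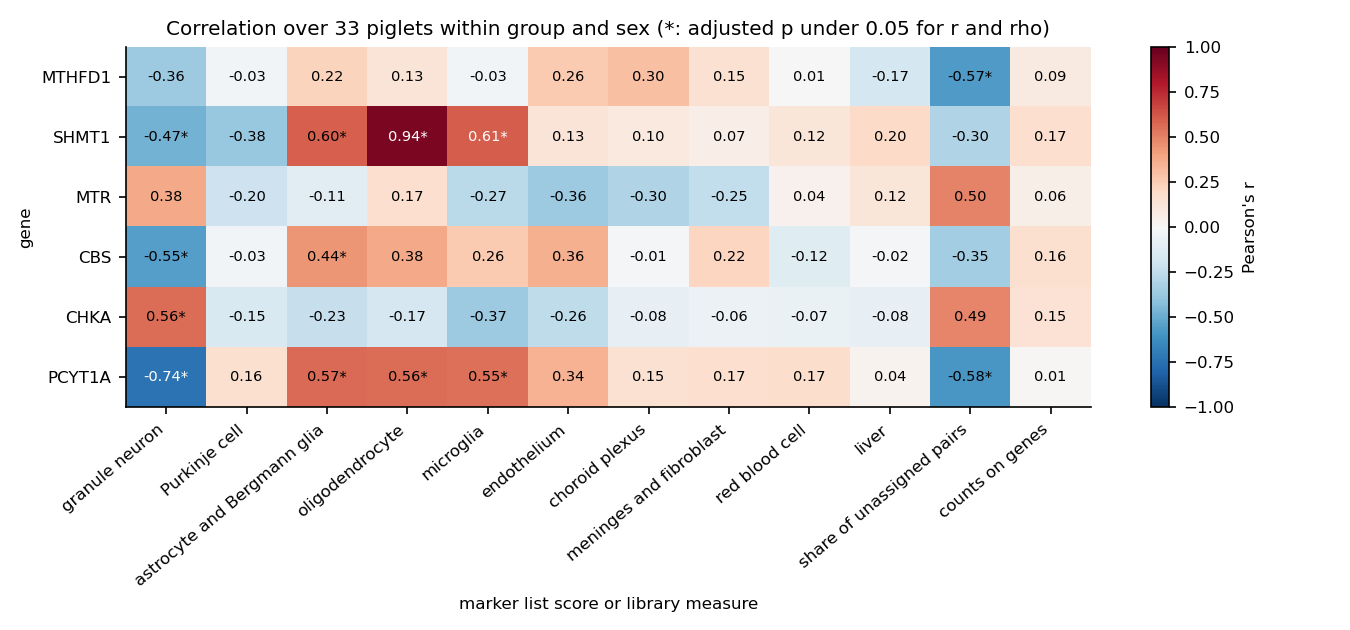
Pearson's r over 33 piglets between each measured gene (rows) and 10 marker list scores, the share of unassigned read pairs and the counts on genes (columns), after fitting group and sex, with a star where the adjusted permutation p was under 0.05 for r and rho. SHMT1 with the oligodendrocyte score (0.94) and PCYT1A with the granule neuron score (-0.737) have the strongest colours, and no gene has a star for the counts on genes.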

How the data were processed

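Cerebellar RNA of 36 piglets was sequenced as read pairs, and the authors deposited a table per piglet with the raw count of pairs on each pig gene in Ensembl, without normalization. The submitters' processing notes name Trim Galore, HISAT2, HTSeq and DESeq2 on Sscrofa11.1, and versions, annotation release and strand setting are not given in the sources used here. Without the strand setting, it is not known which reads of overlapping genes fell in the row of ambiguous pairs. The 5 rows that name no gene held 26.7% to 64.3% of read pairs per library and were left out.

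The study left out 1 library of low RNA integrity in VEG-NBW, VEG-IUGR and MILK-NBW without naming it. Here the library with the largest share of unassigned pairs was left out of each, and all 36 are an alternative. Tests used edgeR 4.0.16 under R 4.3.3 (TMM, filterByExpr with a minimum count of 10, quasi-likelihood F test, sex as covariate). Diet and birth weight were fitted without interaction, and the interaction, 4 pairs of groups and sex in 1 model of group means. P-values were adjusted over all genes tested with a threshold of 0.05. In addition, 24 exact permutation tests of single members were run on log2 CPM (prior count 2) and are not adjusted. Counts carry counting error that shrinks with depth, and piglets are the replicates.

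The members and lists were chosen with earlier results of these data known. Named genes were the members, 16 partner genes whatever their values (1 is not reported here), pathway genes called (none in the reported fit), and for each member the 2 genes with the highest r. Other pathway and marker genes were named after their values were seen. Alternatives were DESeq2 1.42.0 with and without sex, DESeq2's size factors in edgeR, weighted voom of limma 3.58.1, sva 3.50.0 with 2 surrogate variables, other filters on low counts, single sexes, only the 2 groups compared, each piglet left out, and 2 covariates and a test by sex added after seeing the data. The fits were tested on simulated data. Litter was not used.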

Additional observations from a re-analysis of the deposited data

Results flagged for a closer look

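Of 76 sets looked at, each the CPM of 1 member or partner gene in 1 group of 8 or 9 piglets, 4 held a piglet that stood apart from its group by Dixon's ratio, and chance flags about 1 in 20 sets. SHMT1 was highest in VEG-IUGR piglet 227, at 44.03 CPM beside 24.9 CPM in the next piglet, and the same library had the highest oligodendrocyte marker sum, 48020 CPM. MTR was highest in VEG-NBW piglet 215, at 60.12 CPM beside 42.8 CPM, in the library with the highest share of unassigned read pairs of the 33, 30.5%. SLC19A3 was highest in VEG-NBW piglet 200, at 4.382 CPM beside 3.68 CPM. SLC5A7 was highest in VEG-NBW piglet 205, at 1.147 CPM beside 0.569 CPM, a level of few counts.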

How the results depend on the processing

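No member was called in any of the 8 comparisons under any alternative run. For the further pathway genes in MILK-IUGR against MILK-NBW the count was 0 and became 1, SLC19A3, with DESeq2's size factors in edgeR (1), DESeq2 with sex (1) and without sex (1), edgeR without sex (1), at least 10 counts in every library (1), limma voom (1), piglet 207 left out (1) and an adjusted p under 0.1 (1), and it was 0 to 1 with 1 piglet left out at a time, 1 in 5 of 33 fits (without piglet 200, 207, 209, 220 or 226). Its adjusted p ran from 0.00147 to 1 over 15 alternatives. Over all genes the count in that comparison was also 1 in these settings but 2 by DESeq2 with sex, and 0 to 1 with 1 piglet left out. In MILK-NBW against VEG-NBW it was 0 and became 2 and 1 by DESeq2 with and without sex, 1 by limma voom, 1 without piglet 207 and 0 to 1 with 1 piglet left out. For the interaction it was 0 and became 2 by DESeq2 with sex. For sex it was 25 and became 7 with at least 10 counts in every library and 48 with 2 surrogate variables. The causes were not tested.

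Of 672 fold changes of members under the alternatives, 89 had the other sign than in the fit reported, and in 3 of these an interval left out 0: MTR in females had an interaction of -0.31 and a log2 difference of 0.30 in MILK-NBW against VEG-NBW, and the sex difference of SHMT1 was -0.23 with 2 surrogate variables. With 1 piglet left out, 136 of 1584 values had the other sign, none with such an interval. No paired analysis was possible because each piglet number is unique. CBS, at 78 to 178 counts, has the largest counting error of the members, 9.05% of its mean.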
